A study of Mus musculus with 67 samples.

Results

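An 8-cell mouse embryo of which every blastomere was sequenced can be added up, so that extra DNA in 1 cell can be set against missing DNA in another. Of the 9 embryos in the series, 7 had exactly 8 cell columns under their embryo name. They hold 56 of the 67 cells, 40 from 5 embryos exposed to aphidicolin (called Aphidicolin 1 to 5) and 16 from 2 embryos exposed to the solvent (DMSO 2 and DMSO 3). The other 11 cells, 4 of a DMSO embryo and 7 of an Aphidicolin embryo, were not summed. A cell's value in a window of 1 Mb was turned into copies by setting the median of its autosomes to 2, so 8 cells in balance add up to a total of 16.

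All embryos were BDF1 embryos (the name denotes a cross of the strains C57BL/6 and DBA/2) grown in vitro in CZB medium. They were exposed at the 4-cell stage to aphidicolin at 75 ng/ml or to DMSO without it. Their blastomeres were taken apart at the 8-cell stage after a bath in cytochalasin B, and the genome of each cell was amplified and sequenced at low depth (scRepli-seq). The embryo is the replicate, with 5 against 2. The labels do not say whether embryos came from separate females or cultures, so the p-values hold only if these embryos are taken as separate replicates. Since each cell was scaled to its own median, a change in the DNA content of a whole cell or embryo is not visible, and all totals are relative to the autosomal median.

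Aphidicolin inhibits the replicative DNA polymerases and slows replication forks. A cleavage division turns 1 blastomere into a pair of daughters without growth in between, and DNA that is drawn whole into 1 daughter leaves the other without it, so that the pair keeps the sum. DNA that is not copied, or is lost from the nuclei, lowers the sum, and only adding up the cells of an embryo tells these arrangements apart in the measured copies.

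Between 0.740 and 2.65 M reads stood behind an Aphidicolin cell (median 2.01, n = 40) and between 1.47 and 2.83 M behind a DMSO cell (median 2.29, n = 16). Counting alone gives an embryo total an error of 0.190 to 0.225 copies per window. Reads are amplified, so this covers counting error only. DMSO embryos had more reads (18.1 and 18.3 M per embryo) than Aphidicolin embryos (14.6 to 16.9 M). The part of this in the results was not tested. A profile along the genome shared by all cells was removed from each cell first. Its mean weight was 1.30 and 1.11 in the DMSO embryos and between 0.680 and 1.13 in the Aphidicolin embryos.

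The Aphidicolin embryos were mosaics in which most gains were matched by losses of the same segment in another cell. A cell was counted as gained in a window above 2.5 copies and as lost below 1.5, with running medians over 11 windows. At least 1 cell was gained or lost in 59.2, 55.03, 87.3, 55.1 and 70.7% of the 2397 autosomal windows of Aphidicolin 1 to 5, and in 1.88 and 14.4% of those of DMSO 2 and DMSO 3. All 5 Aphidicolin embryos lay above both DMSO embryos. In DMSO 3, 1 cell carried most of this: cell 24 was altered in 12.7% of the windows, and the other 7 cells of that embryo in at most 0.626%.

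**Figure D1:**
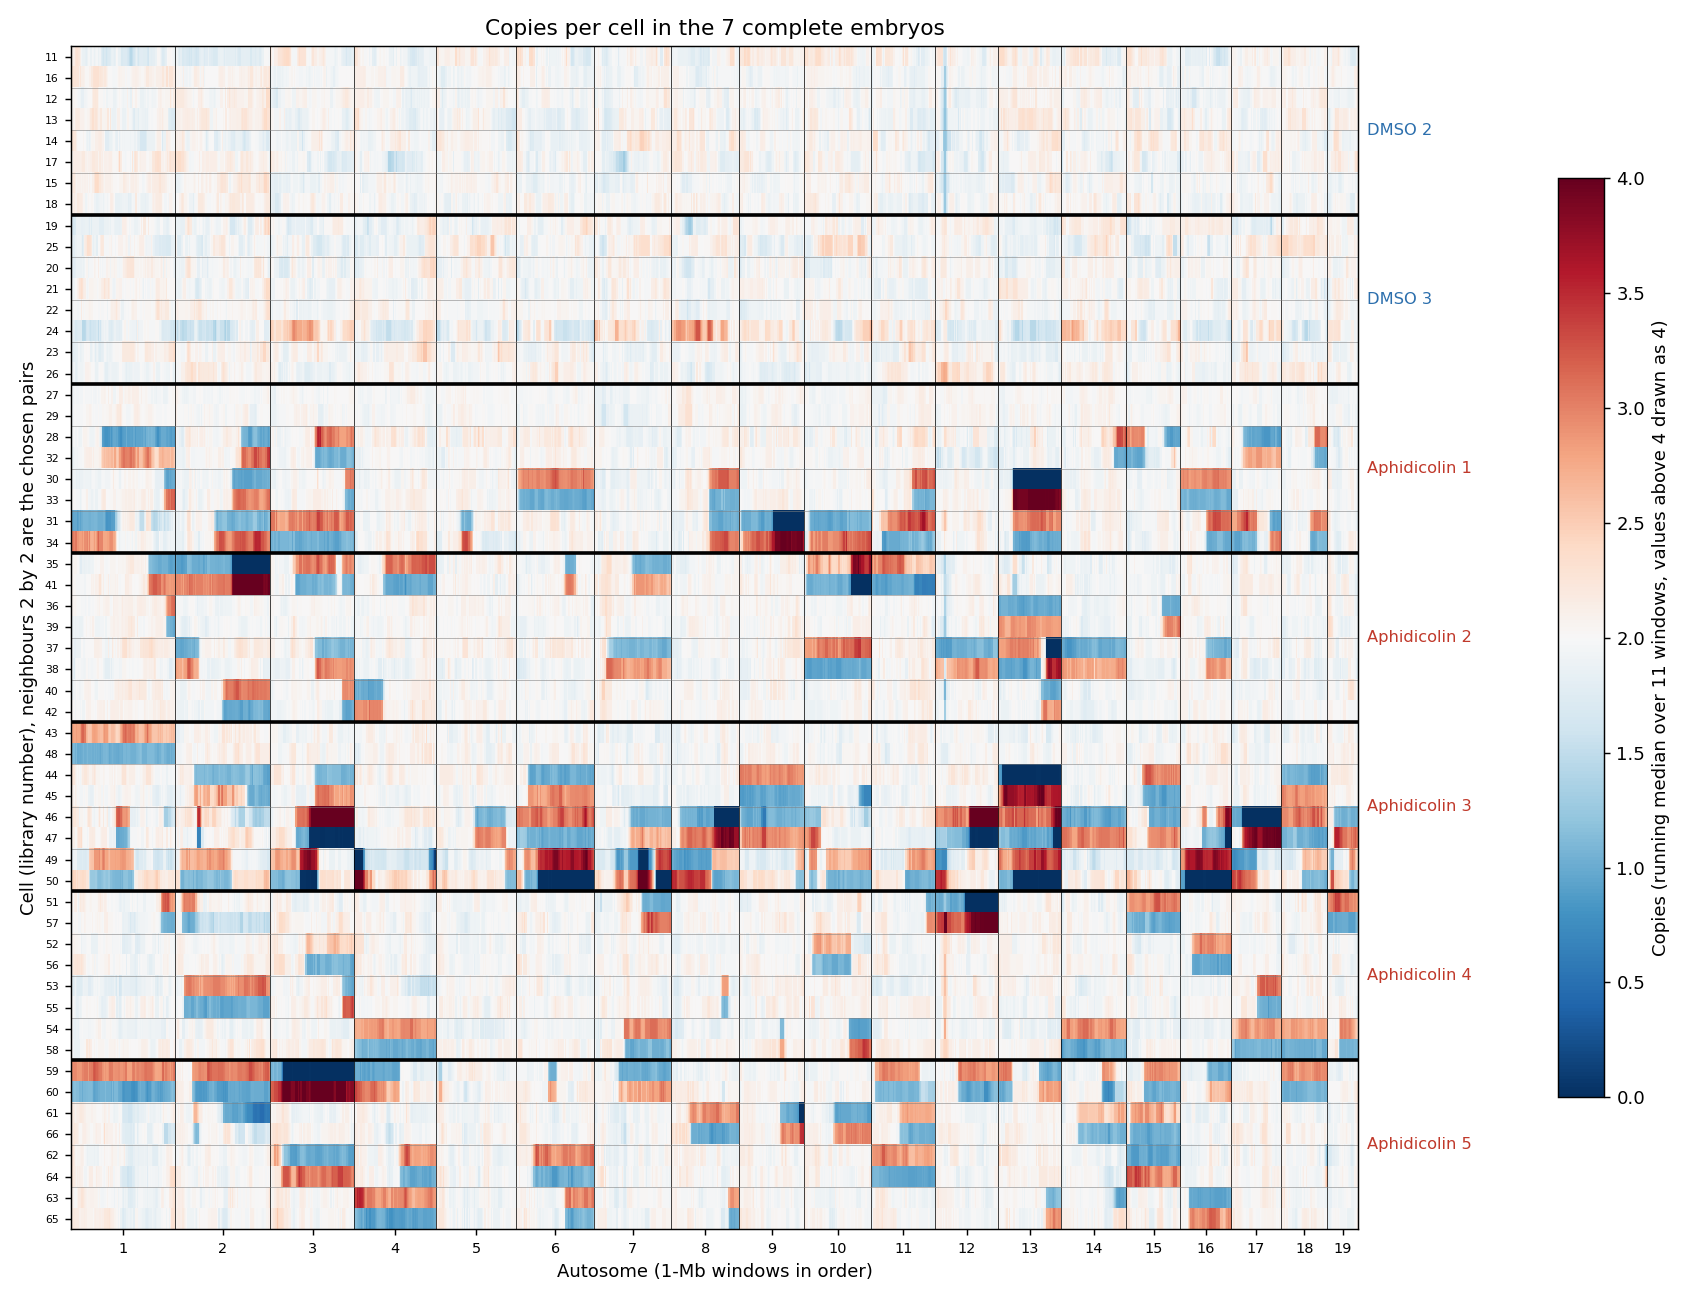
Copies of each cell (rows, named by library number) in 1-Mb windows along the 19 autosomes (columns) of the 7 complete embryos, as running medians over 11 windows, white at 2, blue towards 0 and red towards 4 copies. Rows next to each other 2 by 2 are the pairs of cells described in the text. In the Aphidicolin embryos most red stretches have a blue stretch with the same ends in the neighbouring row, while the DMSO embryos are pale apart from cell 24.

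Where an Aphidicolin embryo was altered, gains and losses nearly always occurred together. A gained and a lost cell were both present in 94.5 to 98.9% of the altered windows of the 5 embryos. Their numbers were equal, 1 gained for 1 lost or 2 for 2 and so on, in 95.2, 92.3, 86.4, 89.3 and 86.1% of the altered windows of Aphidicolin 1 to 5. In DMSO 2 no altered window held both, and in DMSO 3 3.78% did. Windows with at least 2 gained and at least 2 lost cells made up 20.7, 20.2, 43.8, 6.72 and 27.4% of the genome in Aphidicolin 1 to 5. In these windows opposite changes of the same segment stood side by side in at least 4 cells of 1 embryo, and their share was highest in Aphidicolin 3.

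The share of all windows that had both a gained and a lost cell and a total between 15 and 17 was 52.9, 48.1, 73.9, 49.9 and 56.2% in Aphidicolin 1 to 5. It was 0 and 0.376% in the DMSO embryos. The means were 56.2 ± 10.4% (SD, n = 5) and 0.188 ± 0.266% (SD, n = 2), and the groups did not overlap (exact two-sided permutation p = 0.0476, adjusted over 6 measures 0.143). With 21 ways to divide 7 embryos into 5 and 2, 0.0476 is the smallest p this design allows, and the adjusted value could reach it only if all 6 measures did. With the shared profile left in the values the means were 20.2 and 0.188%. This measure depends on how often cells were altered, which was rare in DMSO embryos. Of the altered windows alone, 91.8, 90.1, 88.7, 94.55 and 80.1% had a total between 15 and 17 in Aphidicolin 1 to 5. In DMSO 2 and DMSO 3 it was 73.3 and 85.5%, so the groups overlapped.

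The same contrast appeared per autosome. Gross deviation is the distance of each of the 8 cells from 2 copies, summed over cells and averaged over the 19 autosomes. It was 1.86, 1.60, 3.43, 1.65 and 2.20 copies in Aphidicolin 1 to 5 against 0.466 and 0.628 copies in DMSO 2 and DMSO 3. The means were 2.15 ± 0.757 (SD, n = 5) and 0.547 ± 0.115 copies (SD, n = 2), again without overlap (exact two-sided permutation p = 0.0476, adjusted 0.143).

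Net deviation, the distance of the embryo's total from 16, was far smaller and lay in a similar range in both groups. It was 0.274, 0.279, 0.306, 0.220 and 0.262 copies per autosome in Aphidicolin 1 to 5 and 0.235 and 0.234 copies in the DMSO embryos. Aphidicolin 4 lay below both DMSO embryos. The means of 0.268 ± 0.0314 (SD, n = 5) and 0.235 ± 0.000358 (SD, n = 2) differed by 0.0338 copies, which did not pass the test (exact two-sided permutation p = 0.286, adjusted 0.429). Thus 85.2, 82.5, 91.1, 86.6 and 88.1% of the gross deviation cancelled within the embryo in Aphidicolin 1 to 5. The corresponding shares in DMSO 2 and DMSO 3, 49.6 and 62.7%, start from small gross values. Deviations of independent cells also cancel in part, and no share for that case was set beside these. With the profile left in, mean net deviation was 0.771 copies in the Aphidicolin and 0.770 in the DMSO embryos, and the cancelled shares were 68.9 and 23.5% on average.

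**Figure D2:**
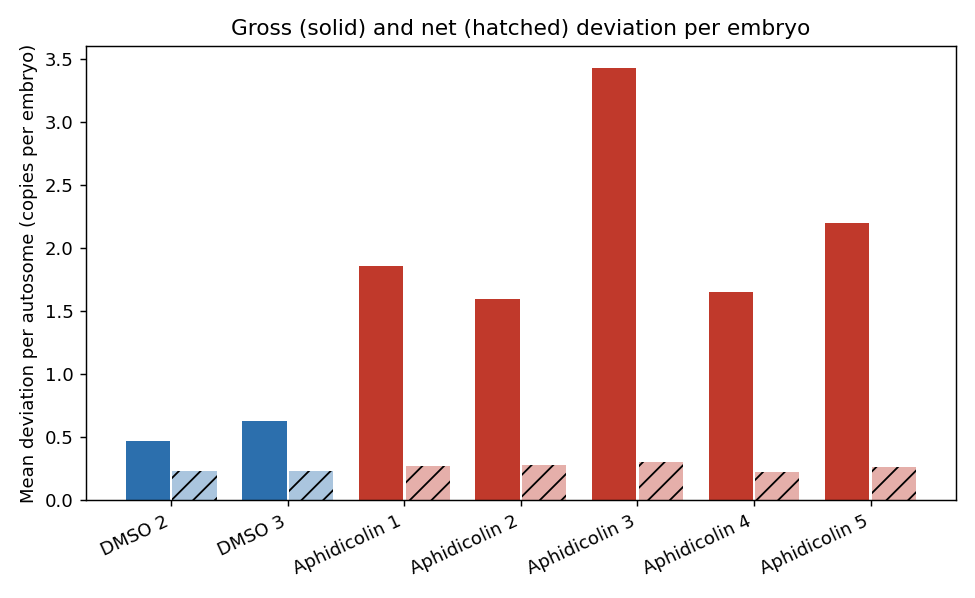
Gross deviation (solid bars) and net deviation (hatched bars) in copies per autosome for each embryo, the mean over 19 autosomes. Blue bars are DMSO and red bars Aphidicolin embryos. The solid bars separate the groups (0.466 and 0.628 against 1.60 to 3.43) and the hatched bars stay between 0.220 and 0.306 in all 7.

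How far the cells of an embryo opposed each other was also measured as a ratio, the variance of the embryo total over windows divided by the summed variances of its 8 cells. The ratio is 1 if cells deviate independently and below 1 if their deviations oppose each other. It was 0.561, 1.77, 0.250, 2.18 and 1.02 in Aphidicolin 1 to 5 and 2.68 and 1.59 in the DMSO embryos, so the groups overlapped (exact two-sided permutation p = 0.238, adjusted 0.429). This result rested on 3 windows of chromosome 7 (chr7:21000001-24000000, mm9) where the shared profile is far below the rest and its removal gave totals of up to 91.2 copies. Without them the ratio was 0.463, 0.588, 0.220, 0.593 and 0.514 in Aphidicolin 1 to 5 and 2.58 and 1.32 in DMSO 2 and DMSO 3. The groups then did not overlap (exact two-sided permutation p = 0.0476, adjusted 0.0952). This setting was added after the values were seen.

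Taking each autosome of each embryo as 1 combination, 82 of 95 in Aphidicolin embryos (86.3%) had totals within 0.5 copies of 16. So had 34 of 38 in DMSO embryos. Totals ran from 15.15 to 17.39 (SD 0.372, n = 95) and from 15.28 to 16.85 (SD 0.299, n = 38). Only 2 Aphidicolin combinations (2.11%) were beyond 1 copy from 16, and none of the DMSO combinations were (0.00%). The narrow range held although gross deviation reached at least 2 copies in 50 of the 95, of which 39 were still within 0.5 copies of 16. Over whole autosomes, 54 combinations had at least 1 gained and 1 lost cell, 4 had gained cells only and 3 lost cells only. In 48 of the 54 the numbers were equal.

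**Figure D3:**
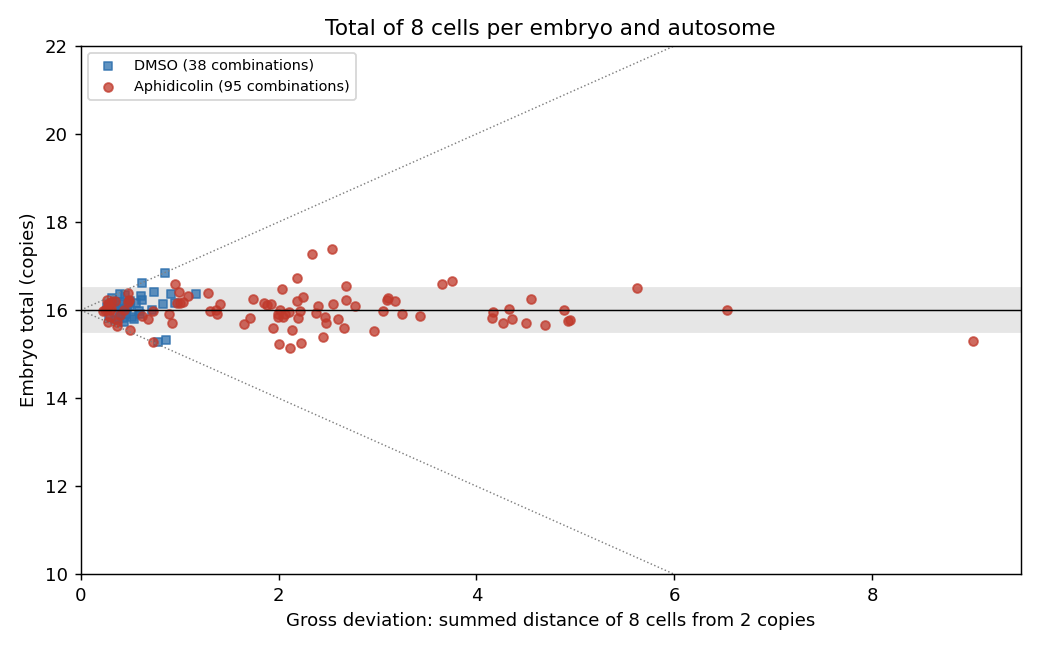
Embryo total (vertical axis, copies) against gross deviation (horizontal axis, copies) for each embryo and autosome, 38 combinations of DMSO (blue squares) and 95 of Aphidicolin embryos (red circles). The grey band is 15.5 to 16.5, and the dotted lines show where a point would lie if all deviations had 1 direction. Points spread to a gross deviation of 9.02 copies while totals stay between 15.15 and 17.39.

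The combinations in balance with the largest gross deviation are described next. A large gross deviation with a total near 16 requires high and low cells, so the choice itself fixed that they offset each other. Which cells took part, and by how much, was not fixed. Chromosome 6 of Aphidicolin 3 had a total within 0.00410 copies of 16 and a gross deviation of 6.54 copies. Cells 45, 46 and 49 had 2.77, 3.10 and 3.31 copies, cells 44, 47 and 50 had 1.18, 1.08 and 0.473, and cells 43 and 48 had 2.01 and 2.07. Here 3 gains stood against 3 losses, and only 2 cells kept about 2 copies.

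Chromosome 3 of Aphidicolin 5 had a total of 16.5 and a gross deviation of 5.63 copies. Cell 59 was almost without it at 0.180 copies and cell 60 had 3.88, while cell 62 had 1.26 and cell 64 had 2.95. The other 4 cells lay between 1.99 and 2.09. Opposite changes of double size and of single size thus occurred on the same chromosome in different cells.

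Chromosome 13 of Aphidicolin 1 had a total within 0.00170 copies of 16 with a gross deviation of 4.89 copies, from cells 30 and 33 with 0.435 and 3.61 copies and cells 31 and 34 with 2.82 and 1.21. Chromosome 16 of Aphidicolin 3 had a total of 15.8 with a gross deviation of 4.93 copies, from cells 50 and 49 with 0.101 and 3.57 copies and cells 47 and 46 with 1.32 and 2.54. Chromosome 15 of Aphidicolin 5 had a total of 15.8 and a gross deviation of 4.95 copies. On it, 3 cells were gained (2.59, 2.67 and 3.03) and 3 lost (1.36, 0.975 and 1.08). In each of these, as the choice requires, low cells stood beside high cells in the same embryo.

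The largest gross deviation of all, chosen after the values were seen, was on chromosome 13 of Aphidicolin 3, at 9.02 copies with a total of 15.29. Cells 44 and 50 had 0.0665 and 0.263 copies, cells 45, 46 and 49 had 3.66, 3.25 and 3.25, and cell 47 had 0.899. Its total was among those outside the 0.5-copy range, on the side of loss.

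Among autosomes, mean gross deviation over the 5 Aphidicolin embryos was highest for chromosome 13 (3.69 ± 3.45 copies, SD) and chromosome 3 (3.43 ± 1.68, SD) and lowest for chromosome 5 (0.436 ± 0.319, SD). The DMSO means for these were 0.740, 0.613 and 0.349 copies. The mean total of the Aphidicolin embryos was 15.9 ± 0.434 for chromosome 13, 16.2 ± 0.158 for chromosome 3 and 16.1 ± 0.161 for chromosome 5 (SD, n = 5). All 3 means were within 0.5 copies of 16, although gross deviation on chromosomes 13 and 3 was several times that on chromosome 5.

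The highest totals in Aphidicolin embryos were on chromosome 7 of Aphidicolin 4 (17.39) and of Aphidicolin 2 (17.27) and on chromosome 19 of Aphidicolin 3 (16.74). The first 2 came from the 3 windows of chromosome 7 named above; without them the totals were 16.3 and 16.1, and no autosome of any of the 7 embryos was beyond 1 copy from 16. On chromosome 19 of Aphidicolin 3, cell 47 had 2.99 and cell 46 had 1.27 copies. The lowest totals were on chromosome 7 of Aphidicolin 3 (15.15) and chromosome 14 of Aphidicolin 5 (15.24) and Aphidicolin 2 (15.26). Without the 3 low windows chromosome 7 of Aphidicolin 3 had 15.37 and was no longer among the lowest, and chromosome 13 of Aphidicolin 3 (15.29) followed those of chromosome 14. On chromosome 7 of Aphidicolin 3, cells 46 and 49 had 1.45 and 1.53 copies and cells 47 and 50 had 2.34 and 2.29. On chromosome 14 of Aphidicolin 5, cell 66 had 1.342 and cell 61 had 2.42 copies. On chromosome 14 of Aphidicolin 2, cell 37 had 0.992 and cell 38 had 2.75 copies, and the other 6 cells were between 1.90 and 1.95.

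No autosome passed the test for a difference in total between the groups. With limma and Benjamini-Hochberg adjustment over 19 autosomes, 0 were called (0.00%), and 0 before adjustment at 0.05. The adjusted p of the best autosome was 0.600. The largest difference, on chromosome 14, was 15.8 in Aphidicolin against 16.5 in DMSO embryos, a difference of -0.71 ± 0.378 copies (SE, adjusted p = 0.600). Over the 2397 windows limma called 0 (0.00%) as well. Before adjustment 150 windows (6.26%, against a threshold of 5%) passed, of which 34 were higher and 116 lower in Aphidicolin embryos. The split turned with the shared profile left in the values, to 98 higher and 67 lower, and was 47 and 94 with scales set by the densest value. Without DMSO 2 it was 39 and 47 of 86 windows, and without Aphidicolin 5 58 and 171 of 229. The best window had an adjusted p of 0.766.

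Net gains and losses of parts of chromosomes did occur, in all 7 embryos. The embryo total was above 17 in 4.76, 4.30, 2.46, 2.17 and 4.80% of the windows of Aphidicolin 1 to 5 (3.70% of their windows together) and in 4.21 and 4.17% of those of the DMSO embryos (4.19% together). The groups overlapped (exact two-sided permutation p = 0.905, adjusted 0.905). It was below 15 in 2.42, 3.84, 7.38, 2.17 and 11.7% of the windows of Aphidicolin 1 to 5 (5.50% together) and in 4.42 and 1.71% in DMSO 2 and DMSO 3 (3.07% together). Only Aphidicolin 3 and Aphidicolin 5 lay above both DMSO embryos, and the difference of 2.43 percentage points did not pass the test (exact two-sided permutation p = 0.571, adjusted 0.686). Without Aphidicolin 5 it was 0.887 percentage points.

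**Figure D4:**
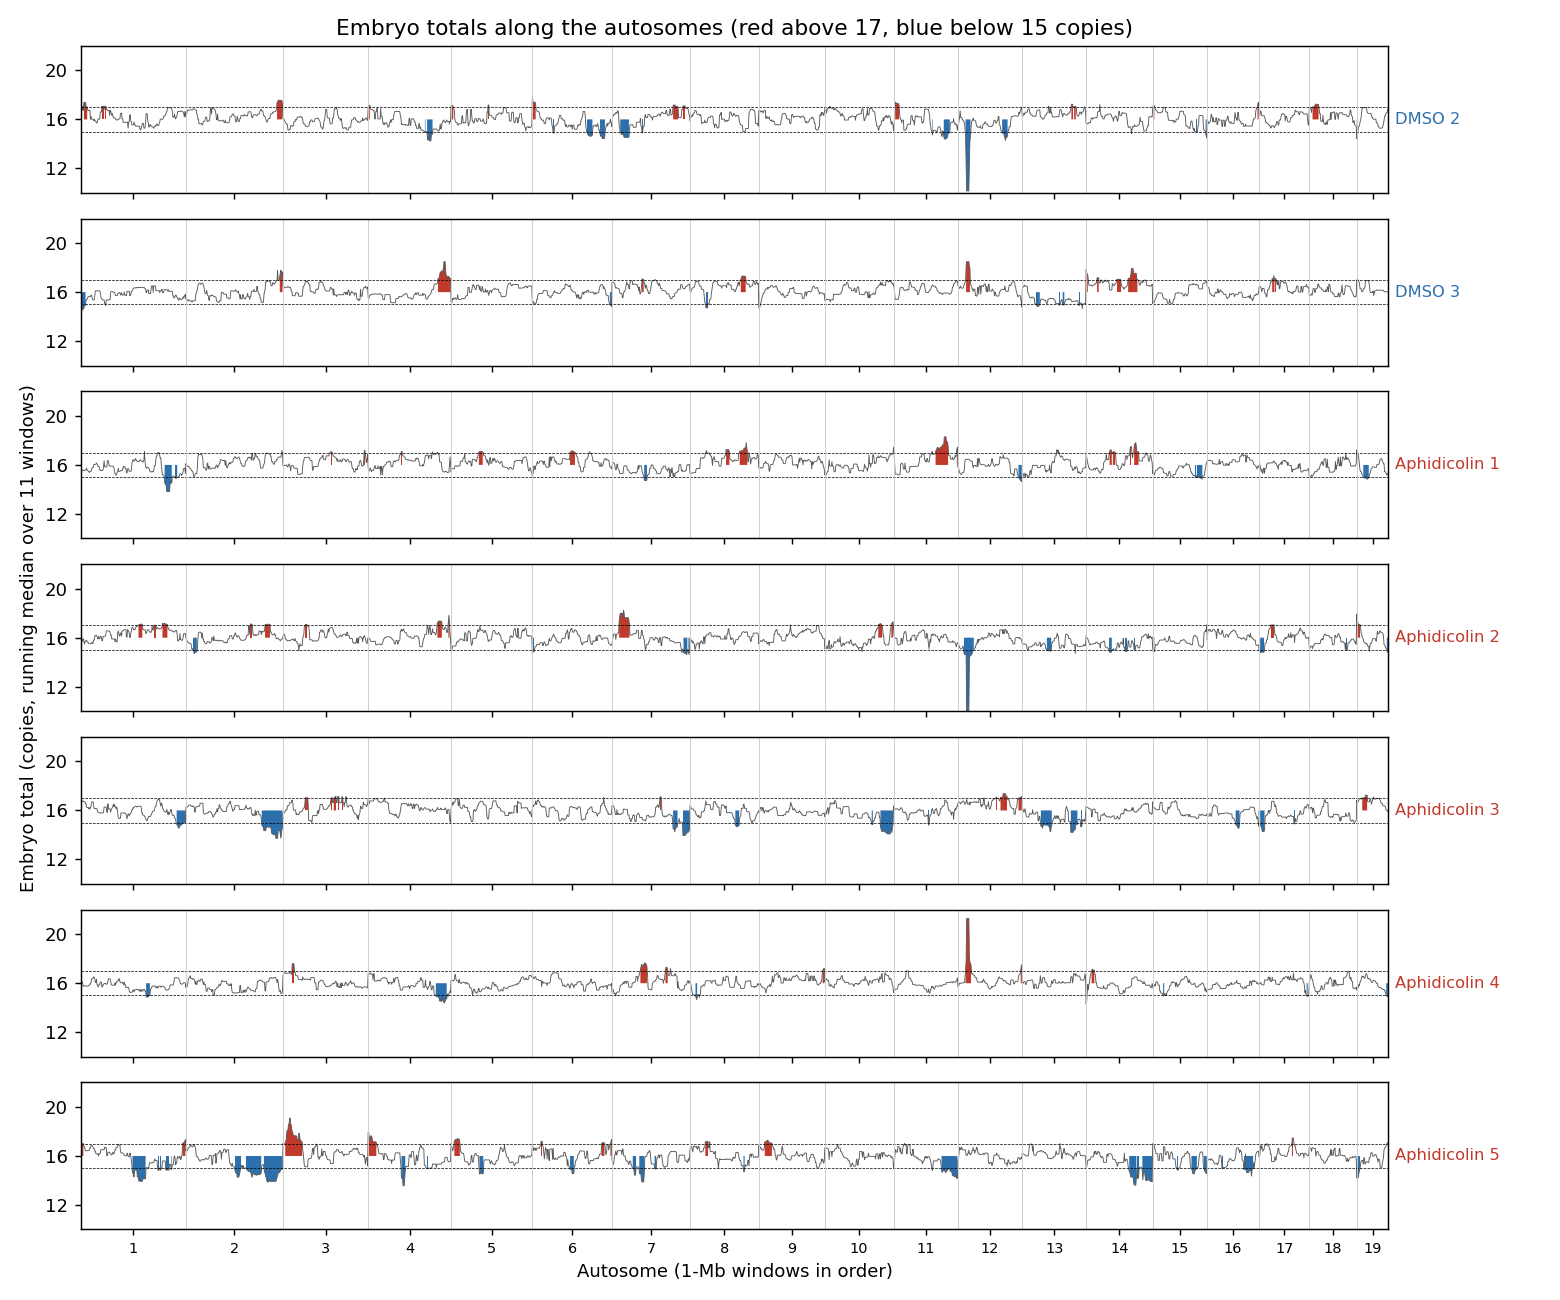
Embryo totals in copies along the 19 autosomes, as running medians over 11 windows, 1 row per embryo. Stretches above 17 copies are red and stretches below 15 are blue, dashed lines mark 15 and 17, and values are drawn no lower than 10 and no higher than 22. Net losses are broadest in Aphidicolin 3 and Aphidicolin 5, and the narrow peaks on chromosome 12 occur in both groups.

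Regions in net gain or loss were found in every embryo, and 5 Aphidicolin embryos stand here against 2 DMSO embryos. Of regions of at least 10 Mb, the Aphidicolin embryos had 14 in net gain (209 Mb in all) and 21 in net loss (403 Mb). The DMSO embryos had 6 in net gain (85 Mb) and 8 in net loss (92 Mb). In 5 of the 6 gains and 7 of the 8 losses of the DMSO embryos no cell was past its own limit, and the total came from small deviations of many cells. In Aphidicolin embryos this held for 2 of 14 gains and 1 of 21 losses, a difference that was not tested. Over all windows at least 1 cell was past its limit in 55.03 to 87.3% in Aphidicolin and 1.88 and 14.4% in DMSO embryos. The contrast is thus not particular to the net regions. Aphidicolin 5 held 10 of the 21 losses (198 Mb) and Aphidicolin 3 held 6 (128 Mb), so 11 remained without Aphidicolin 5.

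The longest net loss was the end of chromosome 2 in Aphidicolin 3 (chr2:142000001-181000000, mm9), with a median total of 14.2 copies. Cells 44 and 45 had 1.08 and 1.00 copies and cell 46 had 1.44, no cell was gained, and the highest was cell 50 with 2.37. The median totals there were 16.6 and 16.8 in the DMSO embryos. With the shared profile left in the values, the total was 15.77 in Aphidicolin 3 against 18.16 and 18.93 in the DMSO embryos. An overlapping stretch was low in Aphidicolin 5 (chr2:146000001-180000000), with a median total of 14.4. There cell 61 had 0.555, cell 60 had 1.01 and cell 66 had 1.61 copies, against a single gain of 3.04 in cell 59.

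The other net losses among the longest 5 were all in Aphidicolin 5. They were chr11:91000001-121000000 with a median total of 14.7, chr2:113000001-142000000 with 14.6 and chr1:99000001-124000000 with 14.3. With the shared profile left in the values, these totals were 17.85, 14.52 and 10.66. In the same order they were 19.77, 15.34 and 10.4 in DMSO 2 and 21.4, 14.59 and 12.87 in DMSO 3. The chromosome 1 region thus lay below both DMSO embryos only with the profile removed, and the chromosome 2 region was close to DMSO 3 without that step. On chromosome 11, cells 64 and 66 had 0.946 and 1.02 copies and cell 60 had 1.40, and only cells 61 and 62 were gained (2.74 and 2.74). On chromosome 1, cell 59 had 2.93 and cell 60 had 0.828 copies, and the other 6 cells lay between 1.68 and 1.86. Losses thus outnumbered gains on chromosomes 2 and 11, whereas on chromosome 1 1 gain and 1 loss stood beside slightly low values in the rest.

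The longest net gain was on chromosome 3 of Aphidicolin 5 (chr3:7000001-39000000), with a median total of 17.9. Cell 60 had 3.65 and cell 64 had 2.63 copies against 0.919 in cell 59. It was followed by chr11:80000001-104000000 in Aphidicolin 1 (17.5) and chr4:131000001-155000000 in DMSO 3 (17.3), both of 24 Mb. In the latter no cell was past its limit, and the 8 cells lay between 1.98 and 2.39 copies. The remaining ones were chr7:16000001-36000000 in Aphidicolin 2 (18.02), which spans the 3 low windows, and chr14:80000001-98000000 in DMSO 3 (17.5). In the last, too, no cell was past its limit, and the highest was cell 24 with 2.45 copies. With the shared profile left in the values, the chromosome 3 region had 16.11 in Aphidicolin 5 against 13.25 and 14.77 in the DMSO embryos. The chromosome 11 region had 21.26 in Aphidicolin 1 against 20.46 and 21.69, so it lay above both DMSO embryos only with the profile removed.

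Net regions were not shared by most embryos. No autosomal window was in net gain, and none in net loss, in 3 or more of the 5 Aphidicolin embryos. The shared profile was taken from these cells too, so a level common to most of them was partly removed beforehand. In at least 2 of them, 18 windows were in net gain and 87 in net loss. The single stretch of at least 10 Mb among these was the end of chromosome 2 in Aphidicolin 3 and Aphidicolin 5. Of the 21 net losses in Aphidicolin embryos 7 ended at or close to the distal end of their chromosome. None of their 14 net gains did. All 7 were in Aphidicolin 3 and Aphidicolin 5, and the end of chromosome 2 was counted in both. In DMSO embryos the distal end was reached by 2 of 6 net gains and none of 8 net losses. These counts were not tested, and no share of windows near a chromosome end was set beside them.

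Segments missing altogether from a cell were mostly present in another. A value under 0.2 copies was taken as absent. Such segments covered 148, 139, 638, 63 and 142 windows in 2, 3, 5, 1 and 2 cells of Aphidicolin 1 to 5, and none in the DMSO embryos. In the same windows the highest cell of the embryo had a median of 3.96, 3.89, 3.82, 3.99 and 4.00 copies. A cell above 3.5 copies was found in 100, 85.6, 88.6, 96.8 and 93.7% of them. Median totals were 16.2, 16.2, 15.8, 16.1 and 16.1, so the copies missing from 1 cell were close to those added in another.

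In most pairs the opposite changes followed the same pairing of cells from chromosome to chromosome. In each embryo the 8 cells were joined into the 4 pairs with the lowest summed correlation over windows of the odd-numbered autosomes, out of 105 possible ways, and the pairs were then described on the even-numbered autosomes. When the choice was repeated on the even-numbered autosomes alone, the same 4 pairs came out in each of the 5 Aphidicolin embryos, 20 of 20. The last pair of an embryo is fixed by the others, so these 20 are not separate outcomes. In the 2 DMSO embryos 0 of 8 came out again.

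On the even-numbered autosomes the sum of a pair was nearer to 4 copies than that of other pairs from the same embryo. The mean distance from 4 over the chosen pairs was 0.140, 0.143, 0.202, 0.148 and 0.175 copies in Aphidicolin 1 to 5. Over the 24 other pairs it was 0.413, 0.516, 0.793, 0.473 and 0.564 copies. In each Aphidicolin embryo the worst chosen pair was nearer to 4 than the best of the 24 others. In DMSO 2 and DMSO 3 the chosen pairs had 0.173 and 0.214 copies and the others 0.171 and 0.212, nearly the same. The means of the chosen Aphidicolin pairs lay below that of DMSO 3, and those of 3 of the 5 embryos below that of DMSO 2.

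**Figure D5:**
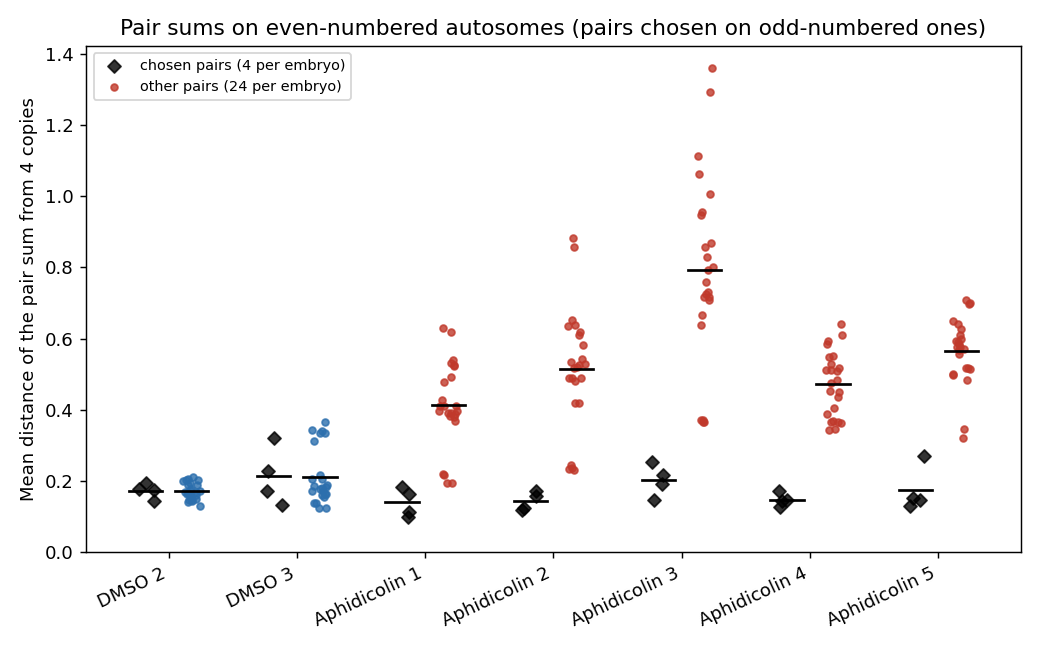
Mean distance of the summed copies of 2 cells from 4, over windows of the even-numbered autosomes, for the 4 chosen pairs (black diamonds) and the 24 other pairs (circles, blue in DMSO and red in Aphidicolin embryos) of each embryo, with means as bars. The pairs were chosen on the odd-numbered autosomes. In Aphidicolin embryos the diamonds (means 0.140 to 0.202) lie below all circles, and in DMSO embryos they lie among them.

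The median correlation of copies over the even-numbered autosomes was between -0.91 and -0.79 for the chosen pairs of the 5 Aphidicolin embryos and between -0.01 and 0.13 for the others. Neighbouring windows share segments, so these describe the windows and carry no p. There were 3 chosen pairs with positive values, cells 27 and 29 (0.58), 36 and 39 (0.52) and 43 and 48 (0.50). The copies of these 3 pairs did not oppose each other on the even-numbered autosomes, so finding them again there shows no opposite change. Cells 27 and 29 of Aphidicolin 1 had no altered window on any autosome. Altered windows ranged from 0 to 42.3% among the cells of Aphidicolin 1 and from 7.47 to 59.9% among those of Aphidicolin 3.

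Rounded to whole copies, most altered windows of a pair were 1 copy in one cell and 3 in the other. On the even-numbered autosomes, 73.9% of the 23000 pair windows of Aphidicolin embryos had 2 copies in both cells. Of the altered ones, 81.0% were 1 and 3, 7.11% were 0 and 4, 7.57% were 1 and 2, and 1.32% were 2 and 3. The sum was 4 in 88.1%, under 4 in 9.46% and over 4 in 2.45% of the altered pair windows. For the other pairs of the same embryos the sum was 4 in 4.76%. In Aphidicolin 1 to 5 the share with a sum of 4 was 97.3, 92.5, 81.1, 90.7 and 86.6%. A sum under 4 was commoner than one over 4 in Aphidicolin 2, 3, 4 and 5 (7.51 against 0.00, 14.2 against 4.68, 6.52 against 2.78 and 12.4 against 1.02%), and not in Aphidicolin 1 (0.120 against 2.64%). In DMSO pairs no altered window had a sum of 4 (0 of 270). Of these, 43 were in DMSO 2 and 227 in DMSO 3, where cell 24 carried most of the altered windows. With so few other altered cells a sum of 4 could seldom arise, and the DMSO pairs were not found again.

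Some pairs were themselves out of balance over long stretches. Stretches of at least 10 Mb with a pair sum below 3.5 numbered 29 in Aphidicolin embryos (689 Mb, all 5 embryos), and they covered 4.88% of the autosomal windows of these embryos. Of the 21 net losses, 17 overlapped at least 1 of them in the same embryo. An embryo total is the sum of its 4 pair sums, so a low total needs at least 1 pair sum below 4 and the overlap is no separate result. Pair sums above 4.5 formed 10 stretches (136 Mb, 4 embryos, 1.03% of windows), and 3 of the 14 net gains overlapped 1 or more. In DMSO embryos there were 2 low stretches (21 Mb) and 13 high ones (267 Mb), of which 192 Mb were in the pair with cell 24. They covered 0.438 and 5.34% of windows, and overlapped 1 of the 8 net losses and 4 of the 6 net gains.

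The longest low stretch was in cells 61 and 66 of Aphidicolin 5 over the distal part of chromosome 2 (chr2:91000001-181000000), with 0.793 and 1.78 copies and a pair sum of 2.62. The lowest pair sum of any such stretch was in cells 44 and 45 of Aphidicolin 3 at chr2:128000001-181000000, where both cells had about 1 copy (medians of 1.11 and 1.08) and the median of their sum was 2.21. In these stretches a loss in one cell had no matching gain in the other. Over all autosomes, lost cell windows exceeded gained ones in each Aphidicolin embryo, 1989 against 1948, 1924 against 1814, 3665 against 3409, 1554 against 1452 and 2648 against 2437 Mb. They did so in DMSO 2 (78 against 1 Mb) and not in DMSO 3 (97 against 260 Mb). The ratio of lost to gained was small in Aphidicolin 1 to 5, at 1.02, 1.06, 1.08, 1.07 and 1.09. The strip of chromosome 12 described below was low in 7 cells of Aphidicolin 2 and of DMSO 2. It was high in 7 cells of Aphidicolin 4, and its part in these sums was not tested.

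Chromosome X, which was not used to find the pairs, showed 1 opposite change of about the whole chromosome. The X of a cell was taken as 1 median over its windows, so changes of parts of X were not looked for. In Aphidicolin 3, cell 46 was listed at 0.00350 copies of X and cell 47 at 2.07. These 2 cells are a chosen pair, and their sum of 2.07 was close to the sums of the other 3 pairs of that embryo, 1.83, 1.90 and 2.14. The totals of X over 8 cells were 7.30, 7.36, 7.94, 7.47 and 8.34 in Aphidicolin 1 to 5 and 13.9 and 13.1 in DMSO 2 and DMSO 3, without overlap (exact two-sided permutation p = 0.0476, the smallest possible, outside the 6 adjusted measures). Median X copies per cell were 1.736 and 1.639 in DMSO 2 and DMSO 3 and between 0.912 and 1.075 in the Aphidicolin embryos. The labels used here give no sex of the embryos, and the cause of this difference was not tested. X number and treatment cannot be told apart in any comparison of these embryos.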

How the data were processed

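Single-cell DNA copy profiles of 8-cell mouse embryos were analysed from the deposited tables of log2 values, which the authors set relative to each cell's median. The build was mm9, per the submitters' processing notes. The sources used here name no aligner or filter. The embryo, the collection window and the batch of a cell come from other metadata columns, deposited by the authors as names; all cells shared 1 batch and 1 collection window. Whole read numbers could be recovered from 100% of the values of every cell (tolerance 0.01), which gave the depths.

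The tables list 13103 bins at steps of 200 kb, of which 12836 were used. For the depths, bins 5 steps apart were treated as a set covering the genome once, and the sets were averaged. Neighbouring bins were thus taken to overlap, so that neighbouring windows share reads. A bin without a value in a cell was set to 0 copies where most cells had one. Medians over 1-Mb windows (at least 3 bins) gave 2397 autosomal windows. The shared profile (mean of the medians of both treatments, all 67 cells) was removed from each cell by Huber regression on the log2 scale, with no pseudocount (statsmodels 0.14.6), and copies were scaled to an autosomal median of 2 and summed. The 6 embryo measures were tested by exact two-sided permutation with Benjamini-Hochberg adjustment, and totals per window and autosome with limma 3.58.1 in R 4.3.3. The calculations were first tested on simulated data. Combinations named are the 3 highest and 3 lowest totals in Aphidicolin embryos and the 5 largest gross deviations within 0.5 copies of 16; regions named are the 5 longest each way. The members, measures and rules were chosen with earlier results of these data known. Regions are given by position, since no annotation of mm9 was used here. Alternatives covered the profile, the scale, missing bins, the limits, smoothing and leaving out each embryo.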

Additional observations from a re-analysis of the deposited data

Results flagged for a closer look

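The total of chromosome 9 in Aphidicolin 3 was 15.95 copies, apart from those of the other 4 Aphidicolin embryos, the nearest of which was 16.16. The gap made up 0.727 of the range of the group. The distance from 16 was small, and 26 groups of 5 embryos were examined in this way, of which chance marks about 1 in 20.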

How the results depend on the processing

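No paired analysis was possible because the cell numbers in the labels (7 to 26 for DMSO, 27 to 73 for Aphidicolin) do not overlap and nothing ties embryos across treatments. Gross deviation, the variance ratio and the share of balanced opposite windows kept their direction under every alternative run, and limma called 0 windows and 0 autosomes under each. The difference in net deviation (Aphidicolin minus DMSO) turned to -0.0856 copies with a profile from the 4 cells of the incomplete DMSO embryo. The difference in net gain turned to 0.985 and 0.388 percentage points with scales set by the autosomal mean and the densest value, and that in net loss to -6.75 with the profile left in. The cause was not tested. Autosomes of Aphidicolin embryos in net gain or loss numbered 30 with the profile left in (12 in DMSO embryos), 13 at a limit of 0.5 copies, 0 at 2 copies, 0 with medians over windows, 0 without the 3 low windows, and 1 to 2 when 1 embryo was left out. The mean cancelled share was 68.9% with the profile left in. The 20 pairs were found again under both alternatives tried, added after the data were seen. In the DMSO embryos 1 pair was found again under each of these alternatives, against 0 in the main run. With 2 DMSO embryos the tests cannot reach an adjusted p under 0.05 unless all 6 measures give the smallest p; depth sets a counting error of 0.190 to 0.225 copies on each window total.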

Other observations

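A strip of chromosome 12 had a level of its own in nearly all cells of some embryos (chr12:17000001-26000000, mm9). Its total was 9.12 in DMSO 2 and 9.40 in Aphidicolin 2, where 7 of 8 cells were below 1.5 copies. It was 23.3 in Aphidicolin 4, where 7 of 8 cells were above 2.5, and 18.5 in DMSO 3. In Aphidicolin 1, 3 and 5 it was 16.5, 16.7 and 16.2. The 3 windows of chromosome 7 with a low shared profile also differed by embryo in the values as deposited: over these windows the totals were 15.7 to 16.9 in Aphidicolin 2, 7.03 to 9.33 in Aphidicolin 4, 6.62 to 8.09 in Aphidicolin 5, and between 0.148 and 0.814 in the other 4 embryos.

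The weight of the shared profile was alike in some pairs and not in others. It was 0.163 and 0.172 in cells 27 and 29 of Aphidicolin 1, 0.348 and 0.401 in cells 36 and 39 and 0.330 and 0.310 in cells 40 and 42 of Aphidicolin 2. It was 1.39 and 0.451 in cells 59 and 60 of Aphidicolin 5, the pair with the most altered windows of that embryo.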
